A study of Homo sapiens with 12 samples.

Results

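The 10 BCL2 family genes described here were chosen by symbol, with earlier results of these data known. Their shares set beside those of all genes are thus descriptions. The genes were matched to the Ensembl identifiers of the count table. They comprise 2 anti-apoptotic genes (MCL1 and BCL2L1), 6 BH3-only genes (BCL2L11, BBC3, PMAIP1, BIK, BMF and BID) and 2 effector genes (BAX and BAK1). All 10 were found among the 19901 genes of the table, and all 10 passed the filter on low counts that left 13093 genes for testing. RNA-Seq was performed on HCT116 cells, an established human colorectal carcinoma line, in which both alleles of TRIM28, the gene of the chromatin and transcription regulator KAP1, carry a degradation tag at the C-terminus. The small molecule dTAG directs the tagged protein to the proteasome. All groups were made from the same edited line (genotype KAP1_dTAG, clone D5), so the results describe 1 clone, and all cells were kept in serum-free medium for 48 h, with dTAG or its vehicle DMSO present for the last 8 h. Serum was then given for 30 min or not given, which made 4 groups of 3 libraries: DMSO-S0 (vehicle, no serum), DMSO-S30 (vehicle, 30 min of serum), dTAG-S0 (KAP1 depleted, no serum) and dTAG-S30 (KAP1 depleted, 30 min of serum). The comparisons ask how these genes respond to serum, whether their levels change upon acute KAP1 depletion, and whether the serum response differs with and without KAP1.

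BCL2 family proteins decide whether the outer membrane of the mitochondrion is permeabilised, the step that releases cytochrome c and commits a cell to the intrinsic pathway of apoptosis. The effectors BAX and BAK form pores in that membrane, the anti-apoptotic members hold the effectors and the BH3-only activators in check, and the BH3-only members sense stress and either neutralise the anti-apoptotic proteins or activate the effectors. MCL-1 and NOXA, the product of PMAIP1, are short-lived proteins that pair with each other, and the MCL1 transcript is known to turn over quickly. In many cell types, withdrawal of growth factors is known to raise BIM, the product of BCL2L11, through FOXO transcription factors, and PUMA, the product of BBC3, is a p53 target.

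Values are read counts over whole genes, introns included, from RNA depleted of ribosomal RNA, and each count was divided by its scaled library size to give CPM. Totals including ERCC spike-ins (synthetic RNAs added to every sample) were 20537682 to 26278707 counts per library, and spike-ins took 7.97% to 9.37% of them. The Spearman correlation between replicates across genes was 0.996 to 0.998. On the spike-in factor used in the fits, DMSO-S0 replicate 1 was at -0.67, against -0.35 to 0.41 in the other libraries. Between replicates, dTAG-S30 replicate 1 differed most from its partners. Its chi-square per degree of freedom was 9.78 and 9.80, against 3.02 to 8.15 in the other pairs. The epithelial markers EPCAM, CDH1, KRT8, KRT18 and KRT19 summed with VIL1 and CDX1 to 1141 to 1193 CPM in DMSO-S0, 1309 to 1405 CPM in DMSO-S30, 1166 to 1310 CPM in dTAG-S0 and 1367 to 1563 CPM in dTAG-S30, but VIL1 and CDX1, which mark differentiated intestinal epithelium, were near 0 (group means of at most 0.24 CPM and 0.02 CPM). Of the 5 tested epithelial markers, 4 were called higher with serum in both treatments, with log2 fold changes in DMSO- and dTAG-treated cells of 0.39 and 0.34 for KRT19, 0.35 and 0.30 for KRT18, 0.30 and 0.29 for KRT8, and 0.17 and 0.31 for CDH1, and EPCAM was not called. Over all genes tested, 9.39% were called higher with serum in DMSO-treated and 9.3% in dTAG-treated cells. With dTAG 1 of the 5 was called in serum-treated cells, CDH1 (0.24, adjusted p = 0.0454), and 2 on average over serum levels, KRT19 (0.19) and CDH1 (0.17). Of all genes tested, 1.25% and 4.85% were called in these comparisons. The CDH1 call in serum-treated cells was lost with ERCC library sizes and without any 1 of DMSO-S30 replicates 2 and 3 and dTAG-S30 replicates 1, 2 and 3. With ERCC library sizes the CDH1 calls on average and with serum in DMSO-treated cells were lost too, the first also without DMSO-S30 replicate 2 or 3 and the second also without DMSO-S0 replicate 2 or 3 or DMSO-S30 replicate 1 or 3, and the KRT19 call on average was lost without DMSO-S30 replicate 2. The 9 markers of blood cells, endothelium and fibroblasts summed to 13.0 to 16.8 CPM without serum and 68.1 to 87.1 CPM with serum. COL1A1 made up nearly all of this (14.7 CPM in DMSO-S0 and 81.2 CPM in DMSO-S30), while the other fibroblast markers stayed at 0 to 7 counts per library, with LUM at 0 counts in all 12 libraries. The endothelial marker CDH5, under the count filter, had 0 to 1 counts in DMSO-S0 and 12 to 14 in DMSO-S30. With dTAG it had 0 to 1 counts without serum and 4 to 17 with serum. COL1A1 and the 4 epithelial markers moved with serum as the 5 genes below did. With dTAG in serum-treated cells, CDH1 was called higher (0.24) and PMAIP1 was called lower (-0.35). The part of these markers in the members' values was not tested.

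The promoter windows of RefSeq, which run from 250 bases before to 50 bases after a transcript start on GRCh38.p14, held 14 entries for 8 of the 10 genes, with none for MCL1 and BIK. These windows were searched on both strands for short motifs of factors that are known to act on family members. The cAMP response element half-site TGACG was found in 1 window each of BCL2L1, PMAIP1, BMF and BAX, and in 24.6% of all 35116 windows. The FOXO motif GTAAACA was found in BCL2L11 alone of these genes and in 3.42% of all windows. The E-box CACGTG was found in BBC3, BID and BAX (7.26% of all windows), and 1 of the 4 E-boxes of BAX shared bases with its TGACG match. The AP-1 motif TGANTCA was found in BBC3 (7.71% of all windows), and the CArG box, the binding motif of SRF, in none of the 14 windows against 1.29% of all windows. The GC box GGGCGG was found in 10 of the 14 windows, belonging to 7 of the 8 genes, and in 45.0% of all windows. Windows of BID overlap and share GC boxes, so the 14 windows are not independent. The windows of PMAIP1, which had the largest serum response of the 10 genes, and of BCL2L11, the one with a FOXO motif, are printed below from 5′ to 3′ on the plus strand. Capitals mark the TGACG match of PMAIP1, which is on the minus strand and reads CGTCA here at bases -55 to -51 from the start site, and the GTAAACA match of BCL2L11 at bases -223 to -217. The GC boxes, 4 in PMAIP1 and 3 in BCL2L11, are left in lower case.
PMAIP1, chr18:59899746-59900045: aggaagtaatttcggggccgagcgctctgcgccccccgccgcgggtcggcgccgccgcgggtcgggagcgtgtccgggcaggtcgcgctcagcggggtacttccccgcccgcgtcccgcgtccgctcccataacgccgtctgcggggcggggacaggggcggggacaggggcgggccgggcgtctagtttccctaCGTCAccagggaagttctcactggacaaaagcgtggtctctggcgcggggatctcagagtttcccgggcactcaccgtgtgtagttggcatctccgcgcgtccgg
BCL2L11, chr2:111120664-111120963: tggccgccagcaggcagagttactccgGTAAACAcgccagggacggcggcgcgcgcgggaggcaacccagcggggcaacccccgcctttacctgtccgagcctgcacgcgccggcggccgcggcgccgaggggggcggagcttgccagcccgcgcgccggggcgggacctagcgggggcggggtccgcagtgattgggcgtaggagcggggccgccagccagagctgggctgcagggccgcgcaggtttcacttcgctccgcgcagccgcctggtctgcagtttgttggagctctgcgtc

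Compared per length of gene, MCL1 was the most abundant of the 10 in every group, at 29.4 ± 1.39 CPM per kb (SD, n = 3) in DMSO-S0 and 59.7 ± 0.73 CPM per kb in DMSO-S30. PMAIP1 was next, at 7.68 ± 0.77 CPM per kb in DMSO-S0 and 26.6 ± 0.74 CPM per kb in DMSO-S30. BAX (5.09 ± 0.62 CPM per kb) and BCL2L1 (4.30 ± 0.20 CPM per kb) followed in DMSO-S0, and exchanged places with serum, but their libraries overlapped in both DMSO groups. BBC3 had rank 5 in all 4 groups, and BMF was lowest at 0.69 ± 0.03 CPM per kb in DMSO-S0. BID, BCL2L11, BAK1 and BIK lay between, at 1.51, 1.12, 1.08 and 0.86 CPM per kb in DMSO-S0, where BCL2L11 and BAK1 were separated by less than the SD of BCL2L11. Gene length includes introns, which weigh down the long genes on this scale. BCL2L1 spans 59539 bp, of which 7.05% is exon in GENCODE v44, and per kb of exon it ranked first in all 4 groups. BIK is 5.01% exon and moved on that scale to rank 3 or 4.

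Serum was followed within 30 min by higher transcript counts of 5 of the 10 genes, and by lower counts of none at the threshold used. Both anti-apoptotic genes rose, as did 3 of the 6 BH3-only genes (PMAIP1, BCL2L11 and BIK), and neither effector gene passed the test. The same 5 genes rose with DMSO and with dTAG. These are cultures in bulk, in which more RNA per cell and more cells of 1 kind cannot be told apart. Over all genes tested, 27.3% were called in DMSO-treated cells (9.39% higher, 17.9% lower) and 25.5% in dTAG-treated cells (9.3% higher, 16.2% lower), by edgeR's quasi-likelihood test with Benjamini-Hochberg adjustment at an adjusted p under 0.05. The median log2 fold change with serum was 0.13 over the 10 genes in both treatments, and over all genes tested it was -0.07 in DMSO-treated and -0.06 in dTAG-treated cells. The higher share of all calls depended on scaling: 1229 of 3573 calls were higher in DMSO-treated cells here and 1765 of 2873 under TMM scaling. For the 5 genes that rose, the rise was called under every scaling tried.

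**Figure D1:**
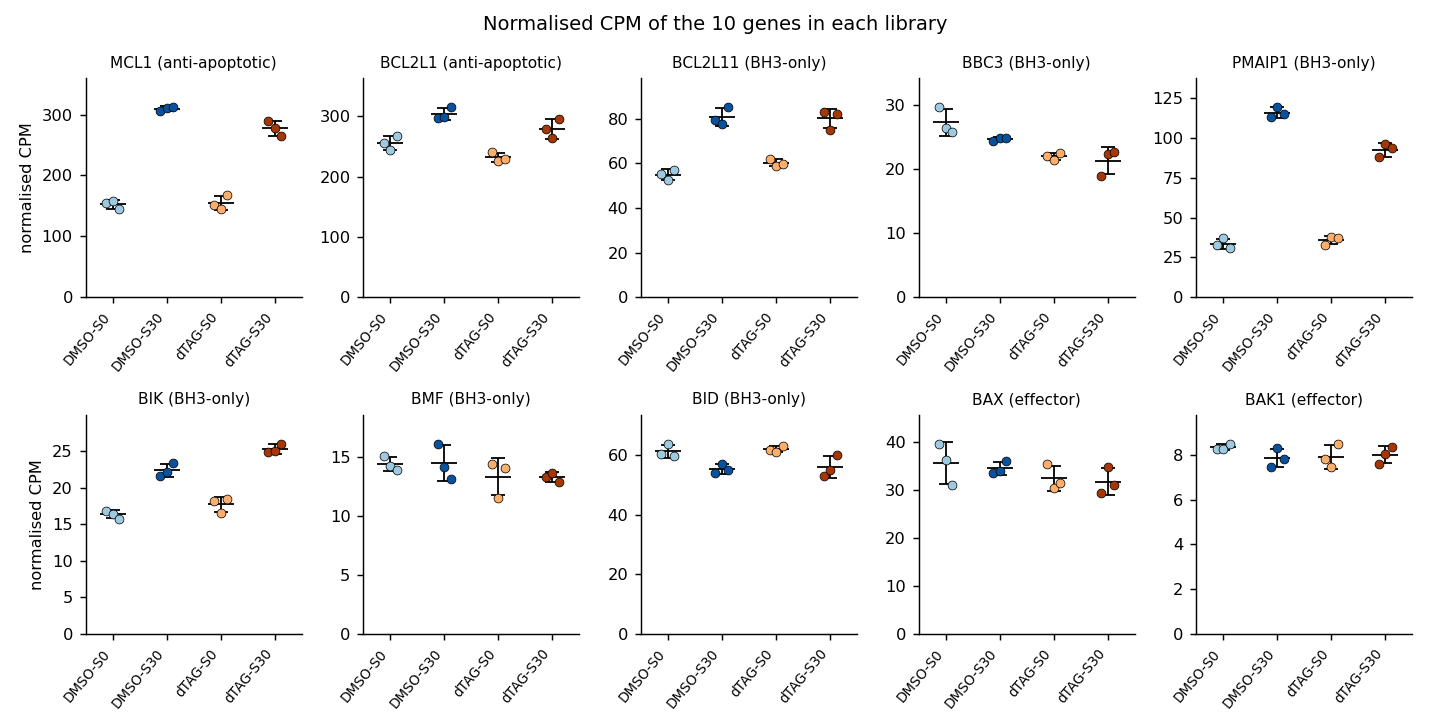
Normalised CPM (vertical axes, each starting at 0) of the 10 genes in the 12 libraries, with points for libraries and black bars for mean ± SD of 3 libraries per group. The serum groups of MCL1 and PMAIP1 lie far above the groups without serum, at 265 to 313 CPM against 145 to 167 CPM for MCL1.

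PMAIP1 (ENSG00000141682.11, hg38 chromosome 18, 59899948 to 59904306, plus strand) encodes NOXA, a BH3-only protein that binds MCL-1 and promotes its degradation. It was at 32.5, 37.2 and 30.7 CPM in the DMSO-S0 libraries and at 113, 119 and 115 CPM in DMSO-S30. In dTAG-S0 it was at 32.8, 37.9 and 37.2 CPM, and in dTAG-S30 at 87.9, 95.9 and 94.0 CPM. Every library with serum thus lay above every library without, and the 3 dTAG-S30 libraries lay below the 3 DMSO-S30 libraries. The rise with serum was 3.51-fold in DMSO-treated cells (log2 fold change 1.81, SE 0.07, adjusted p = 2.14e-17, n = 3 per group) and 2.55-fold in dTAG-treated cells (log2 fold change 1.35, SE 0.07, adjusted p = 5.84e-15). Among the 13093 genes ordered by p, PMAIP1 was number 58 in DMSO-treated cells and number 92 in dTAG-treated cells. The counts behind these values were 613 to 893 without serum and 1957 to 2712 with serum.

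MCL1 (ENSG00000143384.12, chromosome 1, 150574551 to 150579738, minus strand) encodes the anti-apoptotic protein MCL-1, which holds BAK and the BH3-only activators in check. Its level was 155, 159 and 145 CPM in DMSO-S0 and 305, 311 and 313 CPM in DMSO-S30. With dTAG it was 152, 145 and 167 CPM without serum and 289, 278 and 265 CPM with serum. The 6 libraries without serum overlapped between treatments, and with serum all 3 dTAG libraries were below all 3 DMSO libraries. The rise with serum was 2.03-fold in DMSO-treated cells (log2 fold change 1.02, SE 0.06, adjusted p = 3.00e-13) and 1.79-fold in dTAG-treated cells (log2 fold change 0.84, SE 0.06, adjusted p = 8.25e-12).

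BCL2L1 (ENSG00000171552.12, chromosome 20, 31664452 to 31723989, minus strand) encodes BCL-XL and its shorter, pro-apoptotic splice form BCL-XS, which counts over the whole gene do not separate. It was at 256, 244 and 268 CPM in DMSO-S0 and 297, 299.5 and 316 CPM in DMSO-S30. In dTAG-S0 it was at 241, 226 and 229 CPM, and in dTAG-S30 at 278, 263 and 296 CPM. The rise was the smallest of the 5, at 1.19-fold in DMSO-treated cells (log2 fold change 0.25, SE 0.06, adjusted p = 0.00283) and 1.20-fold in dTAG-treated cells (log2 fold change 0.27, SE 0.06, adjusted p = 0.00128), and the libraries with and without serum did not overlap in either treatment. The long non-coding RNA gene BCL2L1-AS1 covers 30610 bp of BCL2L1 on the opposite strand in GENCODE v44, and whether reads were assigned by strand is not given in the sources used here, so reads from the pair cannot be told apart.

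BCL2L11 (ENSG00000153094.22, chromosome 2, 111119378 to 111168447, plus strand) encodes BIM, a BH3-only protein that binds all anti-apoptotic members and activates BAX and BAK. It was at 55.4, 52.3 and 57.0 CPM in DMSO-S0 and at 79.4, 77.7 and 85.2 CPM in DMSO-S30. In dTAG-S0 it was at 62.1, 58.9 and 59.9 CPM, and in dTAG-S30 at 83.1, 75.0 and 82.0 CPM. It rose 1.46-fold with serum in DMSO-treated cells (log2 fold change 0.55, SE 0.06, adjusted p = 1.99e-07) and 1.33-fold in dTAG-treated cells (log2 fold change 0.41, SE 0.06, adjusted p = 1.01e-05), with no overlap between libraries with and without serum. BCL2L11 lies almost wholly (49070 bp) within MIR4435-2HG, a long non-coding RNA gene on the opposite strand that is no row of the protein-coding table, and reads from the 2 genes cannot be told apart in counts made without strand.

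BIK (ENSG00000100290.2, chromosome 22, 43110748 to 43129712, plus strand) encodes a BH3-only protein found largely at the endoplasmic reticulum. It was at 16.9, 16.5 and 15.8 CPM in DMSO-S0, 21.6, 22.2 and 23.4 CPM in DMSO-S30, 18.2, 16.5 and 18.5 CPM in dTAG-S0, and 24.9, 25.1 and 26.1 CPM in dTAG-S30. The rise was 1.39-fold in DMSO-treated cells (log2 fold change 0.47, SE 0.08, adjusted p = 0.000118) and 1.42-fold in dTAG-treated cells (log2 fold change 0.50, SE 0.08, adjusted p = 2.20e-05), with no overlap in either treatment.

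The other 5 genes did not pass the test with serum in either treatment. BID (chromosome 22, 17734138 to 17774770, minus strand), which links death receptor signalling to the mitochondrion once caspase-8 has cut it, came nearest. It was at 60.4, 63.8 and 59.7 CPM in DMSO-S0 and 53.8, 57.0 and 55.1 CPM in DMSO-S30, and at 61.7, 61.2 and 63.1 CPM in dTAG-S0 and 52.9, 55.0 and 59.9 CPM in dTAG-S30. The libraries with and without serum did not overlap, but the log2 fold changes of -0.13 (95% confidence interval -0.26 to 0.00, adjusted p = 0.129) and -0.16 (-0.28 to -0.03, adjusted p = 0.0602) missed the threshold. The libraries with and without serum did not overlap for 7 of the 10 genes in DMSO-treated cells and 6 of the 10 in dTAG-treated cells, BID among them, and the same held for 44.4% and 37.5% of all genes tested.

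The fitted changes of BBC3, BMF, BAX and BAK1 with serum were small. Over all 12 libraries BMF lay between 11.6 and 16.1 CPM, BAX between 29.2 and 39.6 CPM and BAK1 between 7.45 and 8.49 CPM, and for each of these 3 the libraries with and without serum overlapped in both treatments. The log2 fold change of BBC3 was -0.08 (95% confidence interval -0.24 to 0.08) in DMSO-treated and -0.08 (-0.23 to 0.08) in dTAG-treated cells. Its 3 DMSO-S30 libraries (24.4 to 24.9 CPM) nonetheless lay below its 3 DMSO-S0 libraries (25.8 to 29.7 CPM), while those with dTAG overlapped. BMF, whose protein is held on the dynein light chain until stress frees it, had fitted changes of 0.00 in both treatments, with intervals of -0.22 to 0.22 and -0.21 to 0.21. BAX (chromosome 19, 48954815 to 48961798, plus strand) had 0.01 (-0.17 to 0.18) and -0.06 (-0.22 to 0.11), and BAK1 (chromosome 6, 33572547 to 33580293, minus strand) had 0.00 (-0.23 to 0.23) in dTAG-treated and -0.06 (-0.30 to 0.18) in DMSO-treated cells. GGNBP1, a transcribed pseudogene on the opposite strand, covers 7747 bp of BAK1, nearly all of it, so reads from this pair cannot be told apart either. The upper bound of each of these intervals lay under the fitted rise of BCL2L1 in the same treatment, the smallest of the called rises, while the lower bound of BAK1 in DMSO-treated cells leaves room for a fall of that size.

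**Figure D2:**
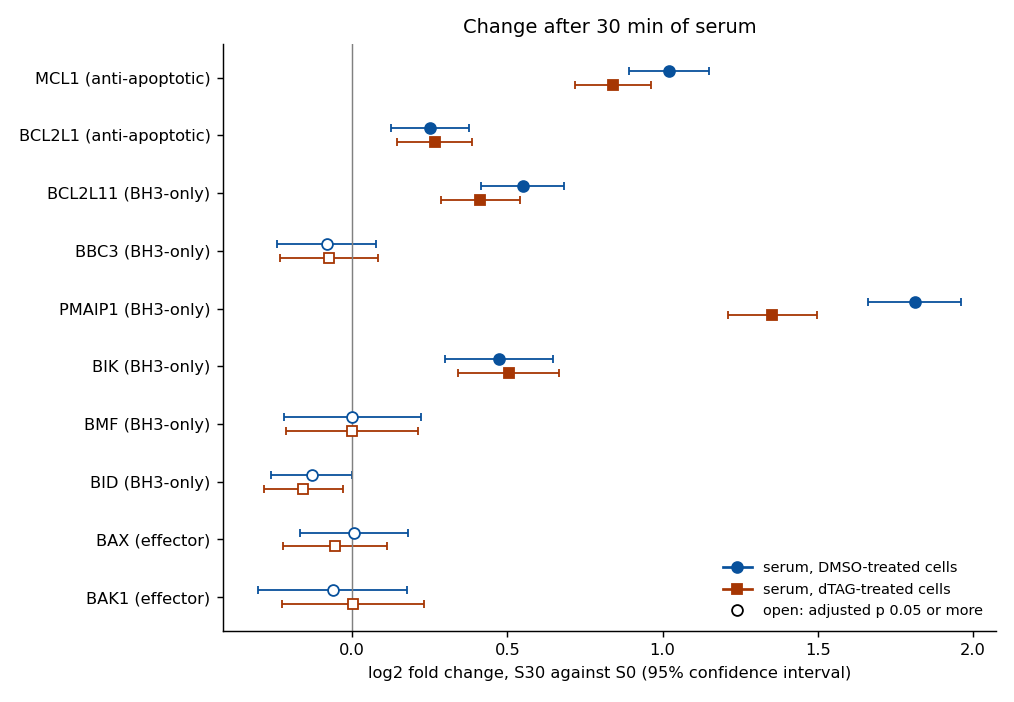
Log2 fold change with 30 min of serum (horizontal axis) for each gene in DMSO-treated (circles) and dTAG-treated cells (squares), with 95% confidence intervals and open symbols for adjusted p of 0.05 or more. PMAIP1, MCL1, BCL2L11, BIK and BCL2L1 have filled symbols in both treatments, and the 2 intervals of PMAIP1 (1.66 to 1.96 and 1.21 to 1.50) do not overlap. The direct test of a difference between the 2 serum responses of PMAIP1 was not called in this fit (edgeR adjusted p = 0.171).

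Few members were called with acute KAP1 depletion. Without serum none of the 10 passed the test, in a comparison in which 1.47% of all genes tested were called (193 genes by edgeR, and 1598 at an unadjusted p under 0.05). With serum 1 of the 10 passed, PMAIP1, against 1.25% of all genes. Averaged over both serum levels, which uses all 12 libraries, 1 of the 10 passed, BBC3, against 4.85% of all genes. The median log2 fold change of the 10 genes was -0.02 without serum, -0.12 with serum and -0.09 on average, and over all genes it was -0.01, -0.00 and -0.00. The dTAG and DMSO libraries did not overlap for 3 of the 10 genes without serum and 5 of the 10 with serum, against 17.7% and 15.7% of all genes tested.

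PMAIP1 fell by 21.3% with dTAG in serum-treated cells, from 116 ± 3.22 to 92.6 ± 4.21 CPM (SD, n = 3; log2 fold change -0.35, SE 0.07, adjusted p = 0.00504). Without serum it was at 33.5 ± 3.38 CPM in DMSO and 36.0 ± 2.74 CPM in dTAG, with overlapping libraries (log2 fold change 0.11, adjusted p = 0.576). The fall with serum was called when any 1 of the 12 libraries was left out, with adjusted p up to 0.0453, but with library sizes taken from the ERCC total it was -0.32 with an adjusted p of 0.0566. The test of the difference between the 2 serum responses gave -0.46 for PMAIP1 (95% confidence interval -0.67 to -0.25), which was number 10 of the 13093 genes ordered by p, and its edgeR adjusted p was 0.171. None of the 10 genes passed that test, in which 6 genes, or 0.0458% of those tested, were called and 439 had an unadjusted p under 0.05. The PMAIP1 difference was called by DESeq2 run without the ERCC factor (adjusted p = 0.0226), by the likelihood ratio test (0.0187) and with no count filter (0.0130). It was also called without DMSO-S0 replicate 2, DMSO-S30 replicate 1 or dTAG-S0 replicate 1 (adjusted p of 0.00510, 0.0415 and 0.0288), and was not called in the other 9 omissions.

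BBC3 (ENSG00000105327.17, chromosome 19, 47220822 to 47232766, minus strand) was at 29.7, 26.5 and 25.8 CPM in DMSO-S0 and at 22.1, 21.5 and 22.5 CPM in dTAG-S0. With serum it was at 24.4, 24.8 and 24.9 CPM in DMSO and at 18.9, 22.4 and 22.7 CPM in dTAG. All dTAG libraries of BBC3 were thus below all DMSO libraries at both serum levels, with log2 fold changes of -0.28 (adjusted p = 0.0662) and -0.27 (adjusted p = 0.104). Averaged over serum levels BBC3 fell by 17.2% (log2 fold change -0.27, SE 0.05, adjusted p = 0.00182), and this was called under every alternative and every omission of a library. The fall of BBC3 without serum, not called in this fit, was called without DMSO-S0 replicate 2, DMSO-S30 replicate 1 or dTAG-S30 replicate 3. Its edgeR adjusted p was then 0.0331, 0.0224 and 0.0164. It was also called with DESeq2, with the likelihood ratio test and with no ERCC factor.

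BCL2L1 was next, with log2 fold changes of -0.14 without serum and -0.12 with serum, no overlap of libraries at either level, and an average of -0.13 (95% confidence interval -0.22 to -0.05, adjusted p = 0.0630). The average was called without DMSO-S0 replicate 2, DMSO-S30 replicate 1 or dTAG-S30 replicate 3, with adjusted p of 0.0322, 0.0454 and 0.0114. MCL1 had 0.02 without serum and -0.16 with serum (adjusted p = 0.933 and 0.275), and a difference between serum responses of -0.18 (-0.36 to -0.00) that did not pass. BIK lay on the other side, at 0.13 without serum and 0.16 with serum (adjusted p = 0.579 and 0.504), and BCL2L11 at 0.13 and -0.01 (0.410 and 0.988). BAX had an average of -0.14 (-0.25 to -0.02, adjusted p = 0.192), BMF of -0.12 (-0.26 to 0.03), BID of 0.01 (-0.08 to 0.10) and BAK1 of -0.03 (-0.19 to 0.13). The 5 genes that rose with serum included both signs of the fitted dTAG effect without serum.

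**Figure D3:**
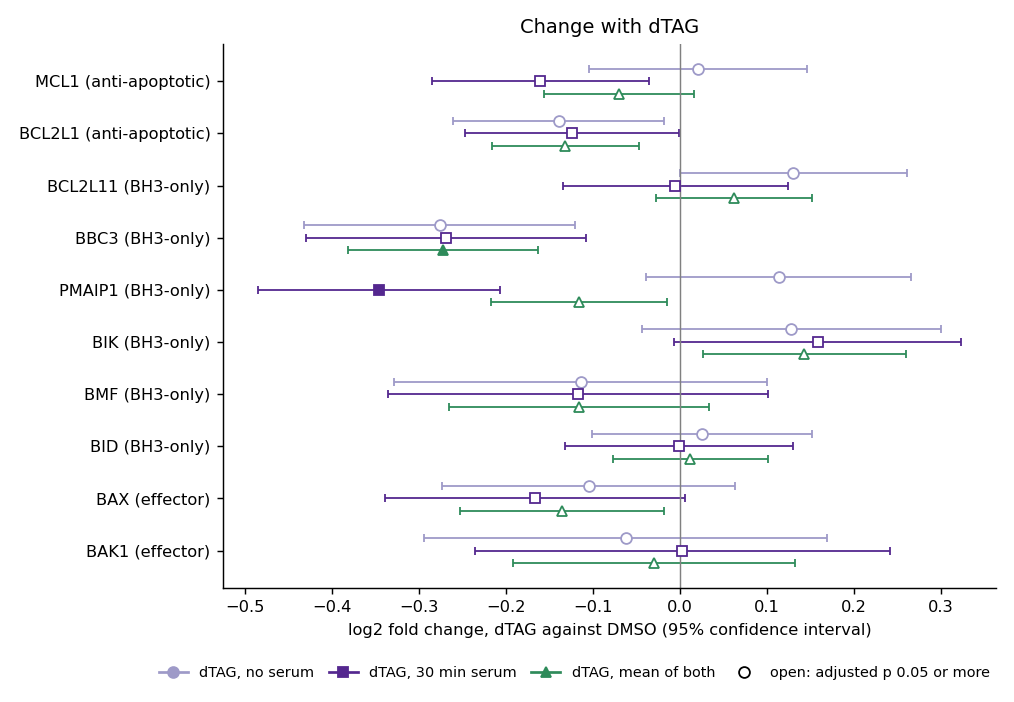
Log2 fold change with dTAG (horizontal axis) for each gene without serum (circles), with serum (squares) and averaged over both (triangles), with 95% confidence intervals and open symbols for adjusted p of 0.05 or more. Only PMAIP1 with serum (-0.35) and BBC3 on average (-0.27) have filled symbols, in this fit.

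Ratios of counts between members of a pair need no library scaling, although their absolute size reflects gene length, so only their differences between groups are read. The PMAIP1 to MCL1 ratio was 0.219 ± 0.014 (SD, n = 3) in DMSO-S0 and 0.375 ± 0.008 in DMSO-S30, and 0.233 ± 0.025 in dTAG-S0 and 0.335 ± 0.027 in dTAG-S30. This ratio of transcript counts was thus higher with serum in both treatments, with no overlap of libraries, and levels of the proteins NOXA and MCL-1 were not measured. The BCL2L11 to MCL1 ratio went the other way, from 0.360 ± 0.032 to 0.261 ± 0.011 with serum in DMSO-treated cells and from 0.391 ± 0.028 to 0.289 ± 0.020 in dTAG-treated cells. The BCL2L11 to BCL2L1 ratio varied little within groups and was higher with dTAG at both serum levels, at 0.216, 0.215 and 0.213 in DMSO-S0 against 0.258, 0.260 and 0.261 in dTAG-S0, and 0.259 to 0.270 in DMSO-S30 against 0.277 to 0.299 in dTAG-S30. The MCL1 to BCL2L1 ratio was 0.599 ± 0.055 in DMSO-S0 and 1.02 ± 0.025 in DMSO-S30, and 0.667 ± 0.053 in dTAG-S0 and 0.997 ± 0.087 in dTAG-S30. Its dTAG and DMSO libraries overlapped at both serum levels. The differences between ratios were not tested and are given as a description.

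**Figure D4:**
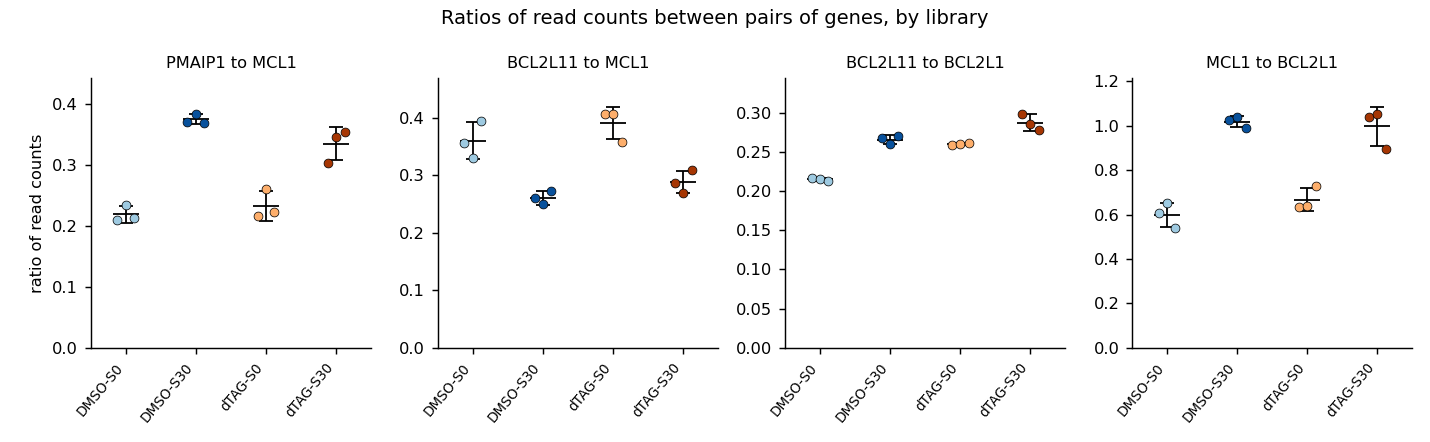
Ratios of read counts (vertical axes, from 0) for 4 pairs of genes in the 12 libraries, with points for libraries and bars for mean ± SD of 3. The PMAIP1 to MCL1 ratio is higher and the BCL2L11 to MCL1 ratio lower in every library with serum, and the BCL2L11 to BCL2L1 ratio is higher in every dTAG library than in the DMSO libraries of the same serum level.

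For each gene that rose with serum, the 3 genes with the most similar profile of log2 CPM were found among those tested, by Pearson's r over the 12 libraries, which fall into groups with and without serum and share their scaling. For PMAIP1 they were SELENOK, PTGS2 and ANKRD37 (r of 0.997, 0.995 and 0.992). For MCL1 they were PLK2, TIPARP and SLC20A1 (0.997, 0.995 and 0.995). JDP2, RSU1 and ASB2 were nearest to BCL2L11 (0.988, 0.987 and 0.985), and PITPNM1, FOXC1 and F3 to BIK (0.984, 0.982 and 0.981). AXL, KIAA1217 and CRISPLD2 were nearest to BCL2L1 (0.962, 0.957 and 0.956). Because any gene with a serum response correlates across such libraries, 529 to 642 genes exceeded r = 0.9 with each of PMAIP1, MCL1, BCL2L11 and BIK, and 75 did so with BCL2L1.

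Of the 14 other family members and BH3 proteins, 11 were tested. BCL2L2, BCL2A1 and BCL2L10, all anti-apoptotic, were under the count filter (group means of at most 0.32 CPM). The handling of overlapping genes is not given, so values this low do not show whether these genes were expressed. With serum 1 of the 11 rose in each treatment, against 9.39% and 9.3% of all genes tested: BCL2L12, an atypical member. It was at 20.5 CPM in DMSO-S0 and 27.7 CPM in DMSO-S30 (log2 fold change 0.45, edgeR adjusted p = 0.000286). In dTAG-treated cells its log2 fold change was 0.38. BNIP3, a mitophagy receptor with a BH3-like region, fell in dTAG-treated cells (log2 fold change -0.27, adjusted p = 0.0202), a call lost under TMM scaling, DESeq2 and other settings and without dTAG-S0 replicate 3, dTAG-S30 replicate 1 or dTAG-S30 replicate 3. The median of the 11 with serum was 0.06 in DMSO-treated and -0.01 in dTAG-treated cells. BCL2 itself was low, at 5.83 CPM in DMSO-S0 and 6.67 CPM in DMSO-S30. None of the 11 was called with dTAG in any of the 3 comparisons or in the interaction.

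Of 15 genes that act downstream at the mitochondrion, 14 were tested. DIABLO was under the filter, at 0 counts in every library. The handling of overlapping genes is not given, so this does not show whether DIABLO was expressed. Of the 14, 2 rose and 3 fell with serum in DMSO-treated cells and 1 rose and 4 fell with dTAG present. The medians of the 14 were -0.09 and -0.05. Over all genes tested, 9.39% were called higher and 17.9% lower in DMSO-treated cells, and 9.3% and 16.2% in dTAG-treated cells. CASP9, the initiator caspase of the apoptosome, had the largest change, from 19.5 to 91.1 CPM in DMSO-treated cells (4.73-fold, log2 fold change 2.24, adjusted p = 6.35e-18) and from 19.2 to 77.3 CPM in dTAG-treated cells (4.01-fold). Its gene shares 564 bp with CELA2B on the opposite strand, and APAF1 shares 8977 bp with ANKS1B. DFFB, the nuclease subunit that cuts DNA in apoptosis, fell (log2 fold changes -0.39 and -0.41), as did the executioner caspase gene CASP6 (-0.27 and -0.29) and APAF1, the apoptosome scaffold (-0.23 and -0.27). Under TMM scaling or DESeq2, CASP6 and APAF1 were no longer called in DMSO-treated cells, and with ERCC library sizes in neither treatment. Without DMSO-S30 replicate 2 the call of CASP6 in DMSO-treated cells was lost, and in dTAG-treated cells it was lost without dTAG-S0 replicate 2 or dTAG-S30 replicate 3. DFFB was not called in dTAG-treated cells without dTAG-S30 replicate 3. No gene of this list was called with dTAG.

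All 13 genes of the death receptor and inhibitor of apoptosis list were tested, and 3 rose and 3 fell with serum in DMSO-treated cells, and 3 rose and 2 fell in dTAG-treated cells (medians 0.07 and -0.01). The shares over all genes tested were 9.39% higher and 17.9% lower in DMSO-treated cells, and 9.3% and 16.2% in dTAG-treated cells. TNFRSF10B, the TRAIL receptor DR5, rose 1.86-fold and 1.77-fold (log2 fold changes 0.90 and 0.82, adjusted p = 1.70e-12 and 4.62e-12). FADD, the adaptor of death receptors, fell in both treatments (-0.37 and -0.36), and TRADD, the adaptor of the TNF receptor, fell in DMSO-treated cells (-0.39, adjusted p = 0.0221). The FADD call was lost without DMSO-S0 replicate 3 in DMSO-treated cells and without dTAG-S30 replicate 1 in dTAG-treated cells. The TRADD call was lost under TMM scaling, with ERCC library sizes, with DESeq2 and without DMSO-S30 replicate 2. BIRC3, which encodes the ubiquitin ligase cIAP2, was at 7.52 ± 0.88 CPM in DMSO-S0 and 19.0 ± 1.85 CPM in dTAG-S0, a 2.54-fold rise (log2 fold change 1.35, adjusted p = 2.16e-08), and rose 2.35-fold in serum-treated cells (adjusted p = 2.44e-07). A long non-coding RNA gene without a symbol covers 11137 bp of BIRC3 on the opposite strand. On average over serum levels 2 genes of the list rose and 2 fell with dTAG, against 4.85% of all genes called in either direction. Of these list genes, BIRC3 alone was called under every alternative and omission.

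Of 8 genes whose products bind or turn over the members' proteins, 7 were tested and 2 were called with serum in each treatment, 1 in each direction. In either direction, 27.3% of all genes tested were called in DMSO-treated and 25.5% in dTAG-treated cells. USP9X, the deubiquitinase that stabilises MCL-1, rose (log2 fold changes 0.22 and 0.18, adjusted p = 0.00327 and 0.0146), although the call in dTAG-treated cells was lost with ERCC library sizes and without dTAG-S0 replicate 1 or dTAG-S30 replicate 1. BTRC, a substrate receptor for the ubiquitination of BIM and other proteins, fell in DMSO-treated cells (-0.20, adjusted p = 0.0161), and MARCHF5, a mitochondrial ubiquitin ligase, fell in dTAG-treated cells (-0.16, adjusted p = 0.0303). Both falls were lost under TMM scaling, with ERCC library sizes and with DESeq2. That of BTRC was also lost without replicate 3 of either DMSO group. That of MARCHF5 was also lost with no count filter and without dTAG-S0 replicate 2, dTAG-S30 replicate 1 or dTAG-S30 replicate 3. None of the 7 was called with dTAG.

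The 16 transcription factor genes known to act on members were all tested, of which 8 rose after serum when DMSO was present and 7 when dTAG was, with none lower (medians 0.19 and 0.15). The shares called higher over all genes tested were 9.39% and 9.3%. JUN rose from 9.84 to 186 CPM in DMSO-treated cells (19.2-fold, adjusted p = 2.57e-24) and from 15.8 to 159 CPM in dTAG-treated cells (9.98-fold, adjusted p = 8.90e-23). SRF rose 6.60-fold and 5.78-fold, MYC 1.49-fold and 1.54-fold, and STAT3 1.44-fold and 1.41-fold. With dTAG 1 of the 16, JUN, rose without serum (log2 fold change 0.69, adjusted p = 8.07e-05), and none was called with serum, where JUN was at -0.25 (adjusted p = 0.0762, and called in 13 of 21 alternatives and omissions). Over all genes, 1.47% were called with dTAG without serum and 1.25% with serum. Against 4.85% of all genes in either direction, 3 of the 16 were called higher on average over serum levels. JUN was 1 of them (0.22), but its average joins fitted effects of opposite sign, which differed by the interaction test (adjusted p = 0.000201), and its call was lost with ERCC library sizes and without DMSO-S0 replicate 1, DMSO-S30 replicate 2 or dTAG-S0 replicate 3. These levels are transcript counts, and the activity of the factors was not measured.

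**Figure D5:**
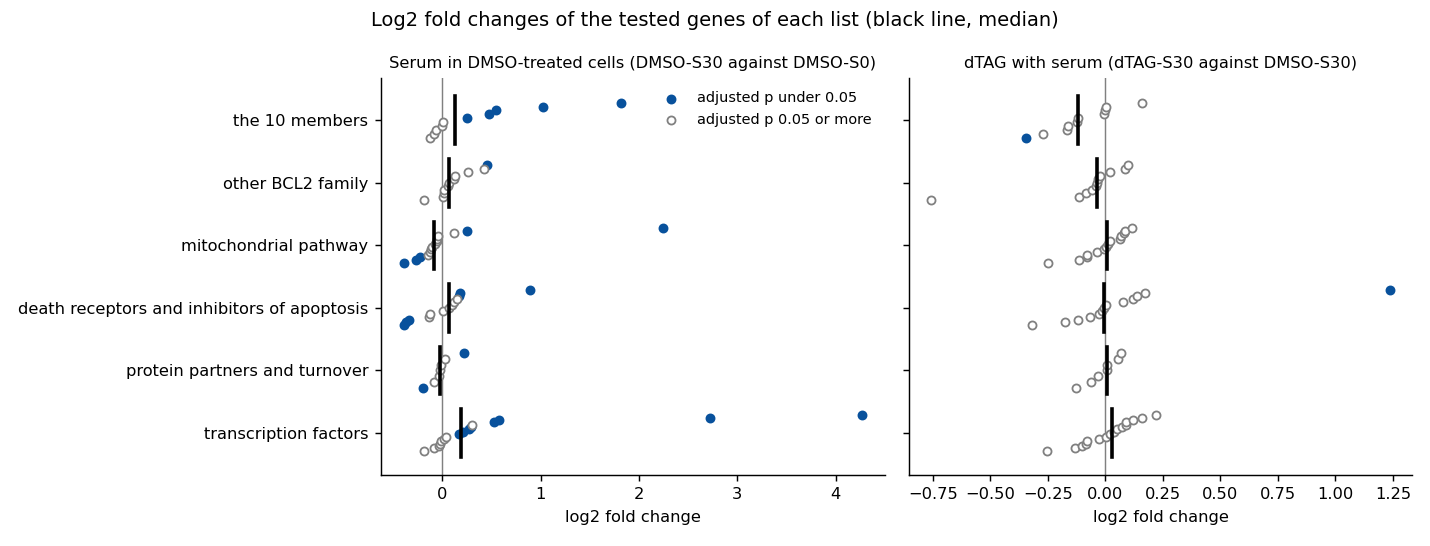
Log2 fold change (horizontal axes) of the tested genes of the 10 members and of 5 related lists, for serum in DMSO-treated cells (left) and for dTAG with serum (right), with filled points for adjusted p under 0.05 and a black line at each median. The highest points with serum are JUN (4.27) and SRF (2.72) among transcription factors and CASP9 (2.24) in the mitochondrial list, and the filled points with dTAG are PMAIP1 (-0.35) and BIRC3 (1.24).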

How the data were processed

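RNA-Seq was measured in 12 libraries of HCT116 KAP1-dTAG cells, grouped by the sample titles into 4 groups of 3. Per the submitters' processing notes and the methods of the study, the authors checked reads with FastQC 0.11.8, trimmed them with Trim Galore 0.6.4, mapped them to hg38 with STAR and counted them over whole protein-coding genes with featureCounts of Subread 1.6.3. The deposited values are raw counts of reads for each gene and each ERCC transcript, not normalised. Strand setting and the handling of overlapping genes are not given in the sources used here. The methods name 3 biological replicates per condition, and whether they came from separate cultures is not stated, so p-values measure the spread between these samples.

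Testing was limited to the 13093 of 19901 genes that reached 10 counts in 6 or more libraries. Counts were scaled by the upper quartile, 1 factor of unwanted variation was estimated from 69 of the 92 ERCC transcripts, and a single model of the 4 groups was fitted (R 4.3.3, edgeR 4.0.16), using the two-sided quasi-likelihood F-test and Benjamini-Hochberg adjustment over all genes tested. Confidence intervals of log2 fold changes are at 95% and cover the spread between libraries. Profiles were compared on log2 CPM (prior count 2). Positions are hg38 from the table, with starts counted from 1, and overlaps and exons were read from GENCODE v44 (the authors may have used another annotation). The fit was tested on simulated data. Alternatives were TMM scaling, ERCC library sizes, 0 or 2 ERCC factors, DESeq2 1.42.0, the likelihood ratio test, no count filter, a replicate block, fits on the 6 libraries compared and omission of each library. The fits with ERCC library sizes and with DESeq2 also left out the ERCC factor. From each related list at most the 4 genes with the largest called change are named. The members and lists were chosen with earlier results of these data known. Intervals cover counting error together with library spread, and not amplification.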

Additional observations from a re-analysis of the deposited data

Results flagged for a closer look

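JUN, which encodes a subunit of AP-1 and was among the transcription factors that act on family members, differed in its serum response between treatments: the log2 rise in dTAG-treated cells was smaller by 0.95 than in DMSO-treated cells (interaction -0.95, edgeR adjusted p = 0.000201, n = 3 per group). It lay between -1.05 and -0.88 under the alternatives and was called in each of them. None of the 10 BCL2 family genes passed the same test of a difference between treatments.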

How the results depend on the processing

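The counts of family genes that changed with serum were 5 in DMSO-treated and 5 in dTAG-treated cells under every alternative and every omission of 1 library. The count with dTAG averaged over serum levels was 1, and became 2 with DESeq2, with the likelihood ratio test, with no count filter and with the replicate block, in each case by the addition of BCL2L1, and was 1 to 2 when 1 library was left out. With serum the count of 1 became 0 with ERCC library sizes (PMAIP1 lost) and 2 with the likelihood ratio test (BBC3 added), and was 1 to 1 over the omissions. Without serum the count of 0 became 1 with DESeq2, with the likelihood ratio test and with no ERCC factor (BBC3 added), and was 0 to 1 over the omissions. For the interaction the count of 0 became 1 with DESeq2, with the likelihood ratio test and with no count filter (PMAIP1 added), and was 0 to 1 over the omissions. The cause of these differences was not tested. Deviations from group means correlated little between same-numbered libraries (-0.15 to 0.14), which does not settle whether replicates of 1 number were made together. With the replicate block BCL2L1 averaged -0.13 at an edgeR adjusted p of 0.0463. Of 60 fitted changes of the 10 genes, the 35 of at least 0.1 kept their sign under all alternatives, and of the 25 smaller ones 19 changed sign under at least 1 and none was called under any. BAK1, with 152 to 204 counts per library, had the widest intervals.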
